A study of Mus musculus with 4 samples.

Results

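The sodium pump of engineered mouse neural tissue was followed here through 7 genes, the beta subunit genes Atp1b1, Atp1b2 and Atp1b3 and the FXYD regulator genes Fxyd1, Fxyd5, Fxyd6 and Fxyd7, out of 23874 genes in the count table. They were picked by symbol from the same EF and noEF libraries described below, with the difference between those groups already known, so their differences are given as description, with no p-value, and being called in the fit across all genes is for them a label and not evidence. The tissue consisted of neurospheres, clusters of neural stem and progenitor cells, set in Matrigel, a basement membrane extract, under a medium with N2 and B27 supplements and 20 ng/ml basic fibroblast growth factor. EF tissue was exposed to an electric field of 150 mV/mm in daily sessions of 30 min over 3 days, after which culture went on for 7 days. The noEF tissue was not stimulated, although the series design text speaks of stem cell suspensions as the control. No mouse strain or age was given, and each group had 2 libraries of polyadenylated RNA here, while the labels speak of 3 replicates. Whether replicates were separate cultures is not given in the sources used here, so the p-values rest on variation among these libraries alone, which may be technical.

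The sodium pump, or Na,K-ATPase, is an enzyme of the cell membrane that moves sodium out and potassium in at the cost of ATP. Its alpha subunit carries out transport, its beta subunit brings the enzyme to the membrane and influences its affinity for potassium, and a small FXYD protein can bind the complex and tune its affinity for sodium. In the brain the pump sets the ion gradients behind firing, and in astrocytes it also helps to clear potassium and glutamate released by neurons.

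Fxyd1 was the member with the widest gap between the groups, and Fxyd6 is shown beside it as the FXYD gene with ample counts and a level that hardly differed. Promoter windows from RefSeq (GRCm38.p6), 250 bases before and 50 after the gene start that RefSeq gives, were present for 5 of the 7 members; Atp1b2 and Fxyd7 were unmatched. The Fxyd1 window lies at chr7:31054804-31055103 on the minus strand and the Fxyd6 window at chr9:45369935-45370234 on the plus strand, both printed 5′ to 3′ along the gene, with motif matches in capitals. The Fxyd6 window starts from the same base as the gene in GENCODE M21, whereas the Fxyd1 window is set on a start 2346 bases inside the outermost GENCODE boundary of that gene.
Fxyd1: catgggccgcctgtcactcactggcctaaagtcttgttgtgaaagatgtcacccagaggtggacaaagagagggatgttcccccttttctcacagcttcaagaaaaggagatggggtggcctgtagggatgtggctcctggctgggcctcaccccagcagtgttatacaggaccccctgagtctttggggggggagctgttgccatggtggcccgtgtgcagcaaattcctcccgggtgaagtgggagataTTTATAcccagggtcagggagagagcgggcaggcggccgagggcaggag
Fxyd6: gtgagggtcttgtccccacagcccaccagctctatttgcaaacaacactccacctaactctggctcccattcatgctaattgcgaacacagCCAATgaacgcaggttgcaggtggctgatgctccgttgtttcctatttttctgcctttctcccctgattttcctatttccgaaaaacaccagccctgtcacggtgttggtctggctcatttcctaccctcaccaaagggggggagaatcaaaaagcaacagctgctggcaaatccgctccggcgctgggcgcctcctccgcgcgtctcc
Both strands were searched for the TATA box TATAAA, the GC box GGGCGG, the CCAAT box CCAAT and the STAT site TTCNNNGAA. The Fxyd1 window held 1 match, a TATAAA read from the opposite strand. It began at position 2 counted from the RefSeq gene start, so it lay inside the gene and not before it. The Fxyd6 window held 1 CCAAT, at position -159. Of the 32851 windows in the table, 13.6% held the TATA box, 37.4% the CCAAT box, 35.7% the GC box and 8.3% the STAT site. The Atp1b1 window had 2 GC boxes and 2 CCAAT boxes, the first of 2 Atp1b3 windows had 6 GC boxes, and the Fxyd5 window had no match to any of the 4 motifs. No printed match overlapped another.

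Levels are in CPM, counts scaled to TMM-corrected library size, and a gene was called at an edgeR quasi-likelihood adjusted p under 0.05 over all 14263 genes tested. Total counts were 33748880 to 34554537 per library. Of 8 neural stem and progenitor markers, all were detected, with summed levels of 5149 and 5470 CPM in EF and 6970 and 6586 CPM in noEF. Of the 7 members, 5 had enough counts to enter the fit, and among them Fxyd1 and Atp1b2 were called, both lower in EF. Among all tested genes 4.99% were called lower, 3.83% higher and 8.82% either way, which is given for scale, since the members were chosen on this contrast. In 3 fitted members both EF libraries lay below both noEF libraries, which 26.8% of all tested genes also did, in 1 (Atp1b1) they lay above, which 27.6% of all tested genes did, and in Fxyd6 the groups overlapped. The median log2 fold change was -0.06 over the 5 fitted members and 0.01 over all tested genes. In bulk RNA, fewer cells of a type and less RNA per cell cannot be told apart.

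**Figure D1:**
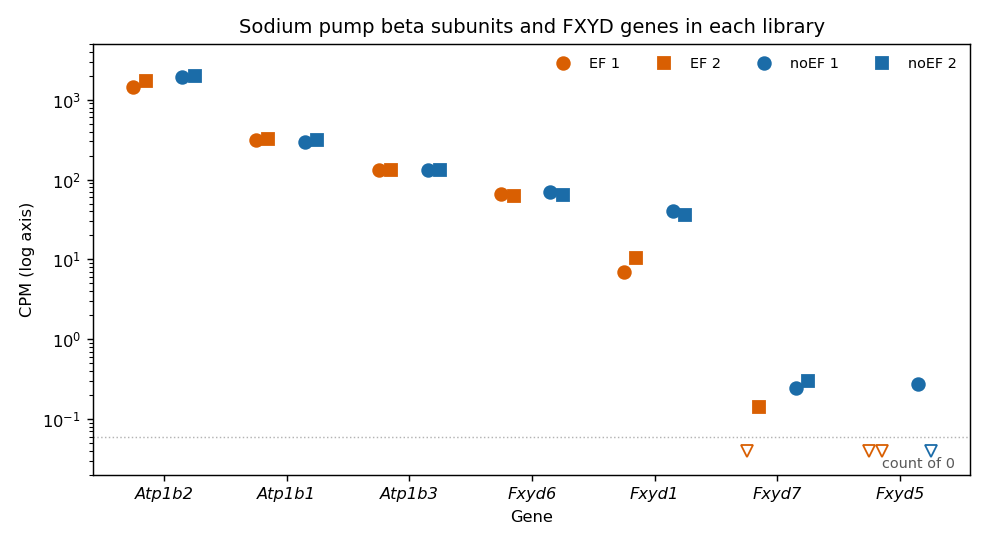
Level of each gene in CPM on a log axis, with EF libraries in orange to the left of noEF libraries in blue and 1 point per library; open triangles mark a count of 0. Fxyd1 shows the widest separation, 6.98 and 10.3 CPM in EF against 40.6 and 35.7 CPM in noEF, while Fxyd6, Atp1b1 and Atp1b3 lie side by side.

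Among the beta subunits, Atp1b2 was the most abundant per kb of exon and the one called lower in EF. Atp1b2, known as the adhesion molecule on glia (ENSMUSG00000041329, GRCm38 chromosome 11, 69599736 to 69605942), had 1428 and 1698 CPM in EF and 1955 and 2013 CPM in noEF. Both EF libraries lay below both noEF libraries, and EF 1 was the lowest of the 4. EF averaged 1563 ± 191 CPM, against 1984 ± 40.6 CPM for noEF (mean ± SD of 2 libraries), and the log2 fold change was -0.34 (SE 0.09), or 1.27-fold lower in EF. Without EF 1 the log2 fold change was -0.22 and the call was lost, and it was also lost with library totals in place of TMM (-0.26), with the replicate number as a block (-0.35) and with that block together with a length and GC offset (-0.34).

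Atp1b1, the beta subunit that predominates in many tissues and in neurons (ENSMUSG00000026576, chromosome 1, 164437109 to 164458355), had 312 and 322 CPM in EF and 299.5 and 311 CPM in noEF. The EF libraries stood just above the noEF ones, by a margin smaller than the spread within a group. Its log2 fold change was 0.05 (SE 0.08), and 0.03 to 0.14 over 13 alternative settings of the scaling, filter, test, block, offset or libraries kept. Of its exon bases, 18.7% overlap Nme7 on the opposite strand, and reads from that stretch cannot be assigned unless counting used strand. Atp1b3, a widely expressed beta subunit (ENSMUSG00000032412, chromosome 9, 96332655 to 96364442), had 131.2 and 130.9 CPM in EF and 133.7 and 132.6 CPM in noEF. All 4 libraries were nearly level, with a log2 fold change of -0.02 (SE 0.08), whose sign turned in 3 of 13 settings.

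The FXYD genes split into a pair with substantial counts and a pair near the limit of detection. Fxyd1 encodes phospholemman, a pump regulator best known from heart and skeletal muscle (ENSMUSG00000036570, chromosome 7, 31051678 to 31057199). It had 249 and 361 counts in EF and 1321 and 1199 counts in noEF, or 6.98 and 10.3 CPM against 40.6 and 35.7 CPM. The groups did not overlap, and the highest EF library was far under the lowest noEF library. EF averaged 8.66 ± 2.38 CPM, against 38.1 ± 3.49 CPM for noEF (mean ± SD of 2 libraries), which put EF 4.40-fold lower on a log2 fold change of -2.14 (SE 0.18). Over the 13 alternative settings the log2 fold change ran from -2.45 to -1.88. Its ends were the fits without EF 2 (-2.45) and without EF 1 (-1.88).

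Fxyd6, which encodes phosphohippolin, an FXYD protein abundant in brain (ENSMUSG00000066705, chromosome 9, 45370185 to 45396159), had 66.9 and 61.8 CPM in EF and 69.9 and 63.9 CPM in noEF. The groups overlapped, and the log2 fold change was -0.06 (SE 0.10), with the sign turned in 3 of 13 settings. Fxyd7, a brain FXYD gene (ENSMUSG00000036578, chromosome 7, 31042513 to 31051467), had 0 and 5 counts in EF and 8 and 10 counts in noEF. Fxyd5, the gene of dysadherin, an FXYD protein tied to cell adhesion (ENSMUSG00000009687, chromosome 7, 31032722 to 31042481), had 0 counts in both EF libraries and 9 and 0 counts in noEF. By counting error alone, a count of 0 allows up to 3 counts, which is 0.0840 to 0.0922 CPM depending on the library. The bound may not hold here, since fewer genes had a count of 1 than of 2. For Fxyd5 the 9 counts of noEF 1 lie above it while noEF 2 had 0, so no difference could be read at this depth. Neither gene entered the fit, and no fold change is given for them.

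Between genes, levels are compared per kilobase of exon, since a long transcript yields more fragments. Over all 4 libraries Atp1b2 averaged 434 CPM per kb of exon union, Atp1b1 101 and Atp1b3 55.3. Atp1b2 exceeded Atp1b1 and Atp1b1 exceeded Atp1b3 in each library, beyond the spread between replicates. Averaged over all 4 libraries, the place of Fxyd1 depended on the length used. Its exon union of 2186 bases is far longer than its longest annotated transcript of 668 bases. Per kb of exon union, Fxyd1 stood at 3.19 and 4.73 CPM per kb in EF and 18.6 and 16.3 CPM per kb in noEF, and Fxyd6 averaged 15.7 ± 0.885 in EF and 16.3 ± 1.02 in noEF (SD, n = 2 each). On this scale Fxyd6 was above Fxyd1 in both EF libraries. In noEF Fxyd1 was slightly above Fxyd6 within each library, at 18.6 against 17.0 in noEF 1 and 16.3 against 15.6 in noEF 2. Those gaps were smaller than the difference of Fxyd1 between the noEF libraries. Per kb of longest transcript, a length chosen after the data were seen, Fxyd1 had 10.4 and 15.5 CPM per kb in EF and 60.8 and 53.4 in noEF, and Fxyd6 had 28.3 and 26.1 in EF and 29.6 and 27.1 in noEF. There too Fxyd1 was under Fxyd6 in EF and above it in noEF.

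The make-up of the beta subunit transcripts shifted by a few percentage points. Atp1b2 held 69.1% and 72.3% of the summed beta level per kb in EF, against 75.8% and 75.9% in noEF. Atp1b1 held 20.0% and 18.2% in EF and 15.4% and 15.5% in noEF, and Atp1b3 held 10.9% and 9.53% in EF and 8.86% and 8.55% in noEF. The Atp1b2 share was lower, and the Atp1b1 and Atp1b3 shares higher, in both EF libraries. Shares of one sum are tied, so a lower Atp1b2 level by itself raises the others. The levels of the others hardly differed: Atp1b1 averaged 102.9 CPM per kb in EF and 99.0 in noEF, and Atp1b3 54.9 and 55.7. The shift in shares thus restates the Atp1b2 difference. Summed over the 3 beta genes, the level was 506 and 575 CPM per kb in EF and 632 and 649 in noEF. The 4 FXYD members together reached 19.5 and 20.0 CPM per kb of exon union in EF and 36.0 and 32.3 in noEF, of which Fxyd1 was 16.4% and 23.7% in EF and 51.6% and 50.5% in noEF. By longest transcript, Fxyd1 was 26.9% and 37.0% of the FXYD sum in EF and 66.9% and 66.0% in noEF.

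**Figure D2:**
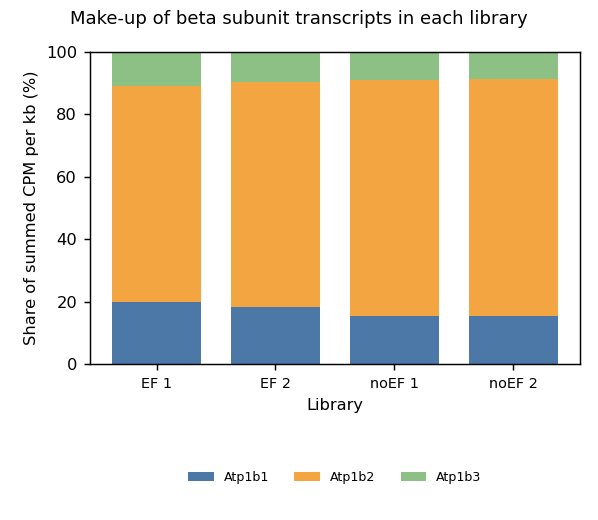
Share of each gene in the summed CPM per kb of exon union of the beta subunits, with 1 stacked bar per library and EF to the left of noEF. Atp1b2 makes up most of each bar, with a share of 69.1% and 72.3% in EF and 75.8% and 75.9% in noEF.

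A few further genes of the FXYD and beta subunit families and of the related gastric and colonic proton pumps were also looked up. Atp4a, the catalytic subunit of the gastric proton pump, had 3.22 and 3.52 CPM in EF and 3.87 and 2.08 CPM in noEF. Fxyd2, the FXYD gene known from kidney, had 13 and 13 counts in EF and 10 and 3 in noEF. Neither passed (edgeR adjusted p = 0.824 for Atp4a and 0.694 for Fxyd2). Fxyd4 had 6 and 0 counts in EF and 0 in both noEF libraries, Atp1b4 had 0 and 8 counts in EF and 0 in both noEF libraries, and Fxyd3, Atp4b and Atp12a had 0 counts throughout.

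Among 14 partners and regulators of the pump, 1 was called higher and 2 lower, all 3 from the NKAIN family, membrane proteins named for their interaction with the pump. Over all tested genes 3.83% were called higher and 4.99% lower. DESeq2 and limma-voom also gave 1 higher and 2 lower, and an unadjusted edgeR p under 0.05 gave 3 higher and 3 lower. Of all 14263 tested genes DESeq2 called 599 higher and 887 lower, and limma-voom 401 and 624. Under the unadjusted threshold the shares of all genes cannot be smaller than 3.83% and 4.99% and are not given here. Nkain1 was higher in EF, at 30.4 and 25.6 CPM against 14.7 and 16.1 CPM in noEF (log2 fold change 0.86, SE 0.15, edgeR adjusted p = 0.00269). Nkain4 was lower, at 8.46 and 11.3 CPM in EF against 28.2 and 24.3 CPM in noEF (log2 fold change -1.41, SE 0.18, edgeR adjusted p = 2.23e-04). Both kept their calls in all 13 settings. Nkain2 was lower as well, at 1.74 and 2.46 CPM in EF against 4.79 and 6.75 CPM in noEF (log2 fold change -1.46, SE 0.33, edgeR adjusted p = 0.0129). Its call was lost without EF 1 (edgeR adjusted p = 0.0647) and without noEF 2 (edgeR adjusted p = 0.0545). Nkain3 stood at 0.10 on the log2 scale (SE 0.21), and missed the threshold (edgeR adjusted p = 0.836). The other 10 genes, among them the membrane anchors Ank2 and Ank3, the kinase genes Sik1 and Sgk1, and Mlc1 and Hepacam of astrocyte junctions, were not called.

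**Figure D3:**
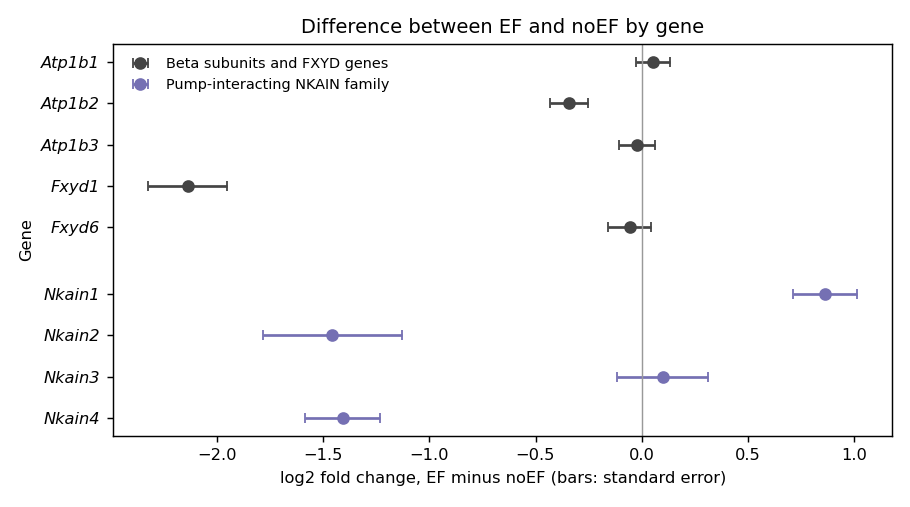
Log2 fold change of EF minus noEF with its standard error from the edgeR fit of 2 libraries per group, for the tested beta subunit and FXYD genes and the NKAIN family. Fxyd1 at -2.14 lies farthest from 0, Nkain4 at -1.41 and Nkain2 at -1.46 also lie below it, and Nkain1 at 0.86 lies above it.

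Lists of genes that use the sodium gradient or move other ions were also tested. Of 16 sodium-coupled uptake carriers, 1 was called higher and 3 lower, while over all tested genes 3.83% were called higher and 4.99% lower. For these carriers limma-voom also gave 1 higher and 3 lower, DESeq2 1 higher and 4 lower, and an unadjusted edgeR p under 0.05 1 higher and 6 lower. Among all 14263 tested genes, limma-voom called 401 higher and 624 lower, and DESeq2 599 and 887. The all-gene shares at the unadjusted threshold are not given here and cannot be smaller than 3.83% and 4.99%. Slc6a11, a GABA transporter of astrocytes, was higher, at 1219 and 1114 CPM in EF against 869 and 931 CPM in noEF (log2 fold change 0.37, SE 0.08, edgeR adjusted p = 0.0115). The glutamine carrier Slc38a1 was lower, at 91.2 and 100.1 CPM in EF against 126.6 and 135.2 CPM in noEF (log2 fold change -0.45, SE 0.09, edgeR adjusted p = 0.00629). The creatine carrier Slc6a8 was lower, at 101.8 and 102.4 CPM in EF against 136.2 and 130.7 CPM in noEF (log2 fold change -0.39, SE 0.09, edgeR adjusted p = 0.0121). The fourth was the phosphate carrier Slc20a2, named after its value was seen (log2 fold change -0.33, SE 0.08, edgeR adjusted p = 0.0244). Without EF 1 none of these 4 passed (edgeR adjusted p = 0.177 for Slc6a11, 0.0633 for Slc38a1, 0.0661 for Slc6a8 and 0.0931 for Slc20a2). Slc20a2 also lost its call with library totals (edgeR adjusted p = 0.0782), with the replicate block (0.0663), without EF 2 (0.110) and without noEF 1 (0.0506), and Slc6a11 with the block and the length and GC offset together (0.0501).

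The share called higher by edgeR was 3.83% over all tested genes, and DESeq2 called 599 and limma-voom 401 of 14263 higher. At an unadjusted edgeR p that share cannot be smaller and is not given here. Of 12 tested cation-chloride cotransporter genes and their kinases, Slc12a7, a potassium-chloride cotransporter, was the 1 called gene. It had 18.6 and 17.9 CPM in EF and 11.9 and 12.3 CPM in noEF (log2 fold change 0.59, SE 0.16, edgeR adjusted p = 0.0331), and 5 of 13 settings lost the call, with adjusted p up to 0.141 without EF 1, 0.0649 without EF 2 and 0.107 without noEF 1. Slc12a4 and the kinase gene Wnk3 had the next smallest p and were at 0.24 (SE 0.09) and 1.18 (SE 0.46) on the log2 scale, and neither passed (edgeR adjusted p = 0.110 and 0.132), though 2 of 13 settings called Slc12a4 and 1 called Wnk3. Of 6 tested calcium pump genes and 14 tested sodium-coupled exchangers, edgeR called 0. At an unadjusted edgeR p under 0.05 there were 1 calcium pump and 2 exchangers, all higher in EF, DESeq2 called 1 calcium pump and 0 exchangers, and limma-voom called 0 of both. The calcium pump of the cell membrane Atp2b1 was nearest, at 76.0 and 68.1 CPM in EF and 49.3 and 60.7 CPM in noEF (log2 fold change 0.39, SE 0.12, edgeR adjusted p = 0.0507), and 5 of 13 settings called it higher. Atp2a2 and Atp2a3, calcium pumps of the endoplasmic reticulum, were at 0.15 (SE 0.08) and 0.35 (SE 0.41), and the exchangers with the smallest p, Slc9a5, Slc4a7 and Slc4a8, at 0.64 (SE 0.27), 0.24 (SE 0.10) and 0.23 (SE 0.13), and these did not pass (edgeR adjusted p = 0.163 to 0.658 over the 5 genes). List medians of the log2 fold change were -0.12 for the uptake carriers, 0.14 for the cation-chloride genes, 0.07 for the calcium pumps, 0.09 for the exchangers and 0.06 for the partners, against 0.01 over all tested genes.

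Fxyd1 sits in a run of FXYD genes on chromosome 7, where Fxyd5, Fxyd7, Fxyd1 and Fxyd3 follow each other with Lgi4 between Fxyd1 and Fxyd3 (GENCODE M21, GRCm38). Fxyd7 lies 210 bases downstream of Fxyd1 on the same strand. Lgi4, which encodes a secreted protein of glia needed for peripheral myelination, starts 2142 bases from the outermost GENCODE boundary of Fxyd1 on the opposite strand, so that the genes point away from each other. Lgi4 was named after its value was seen. It had 3.19 and 2.72 CPM in EF and 9.68 and 7.14 CPM in noEF, with no overlap (log2 fold change -1.51, SE 0.27, edgeR adjusted p = 0.00285), and was called in all 13 settings. Of the exon bases of Fxyd3, 42.5% overlap Lgi4 on the opposite strand. The shared stretch is 2059 of the 4584 exon bases of Lgi4. Reads from it cannot be assigned unless counting used strand, and Fxyd3 had 0 counts. Of the 5 genes within 50 kb of Fxyd1, Lgi4 and Hpn had enough counts to be tested. Hpn, which encodes the protease hepsin, was at 0.03 on the log2 scale (SE 0.42) and missed the threshold (edgeR adjusted p = 0.978).

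**Figure D4:**
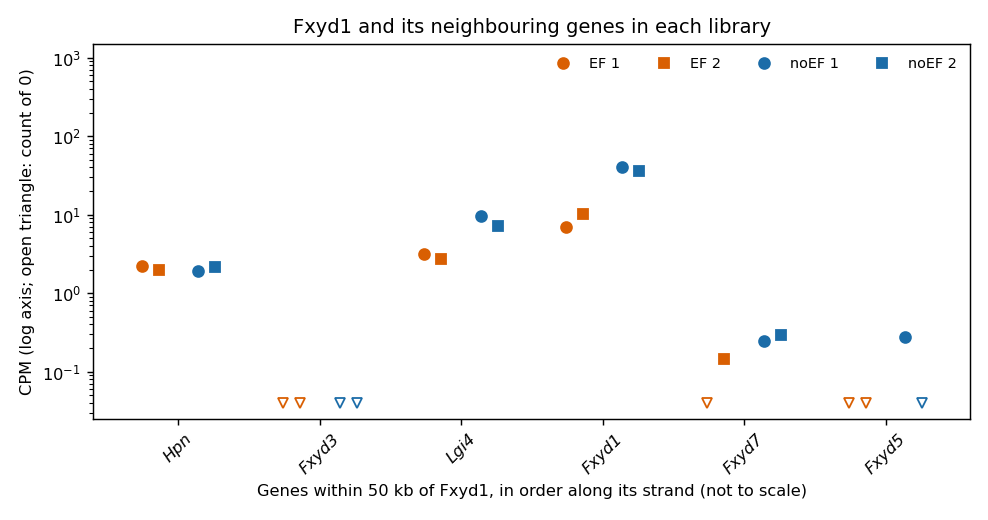
CPM on a log axis of Fxyd1 and the 5 genes within 50 kb of it, ordered along its strand and not drawn to scale, with 1 point per library and EF left of noEF; open triangles mark a count of 0. Fxyd1 and Lgi4 lie lower in both EF libraries, while Hpn lies level. Fxyd7 also lies lower, on only 0 and 5 counts in EF and 8 and 10 in noEF, and was not tested.

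Of 8 astrocyte markers, 4 were called lower in EF, as Fxyd1 and Atp1b2 were, and 4 were not called. Over all tested genes edgeR called 4.99% lower, and DESeq2 called 887 and limma-voom 624 of 14263 lower. At an unadjusted edgeR p that share cannot be smaller and is not given here. Gfap, Aqp4, Gja1 and Aldoc were the lower ones, and edgeR, DESeq2, limma-voom and an unadjusted edgeR p under 0.05 each gave 4 lower and 0 higher. The markers Aldh1l1 at 0.03, S100b at -0.02, Slc1a2 at -0.08 and Slc7a10 at 0.09 on the log2 scale did not pass, and the list summed to 2581 and 2573 CPM in EF and 3622 and 3686 CPM in noEF. Gfap had 237 and 241 CPM in EF and 641 and 671 CPM in noEF (log2 fold change -1.45, SE 0.08). Of the neural stem and progenitor markers, 2 of 8, Sox9 and Fabp7, were called lower and 0 higher by edgeR and 2 lower by limma-voom, while DESeq2 and an unadjusted edgeR p under 0.05 gave 4 lower and 0 higher. Of 8 choroid plexus and ependymal markers 5 were tested and 1, Rarres2, was called lower by edgeR, with 1 lower by DESeq2 and by limma-voom and 2 lower and 1 higher at an unadjusted edgeR p under 0.05, the list summed to 38.2 and 37.0 CPM in EF and 52.1 and 45.6 CPM in noEF, and Ttr and Tmem212 had 0 counts in each library. The part of any of these markers in the differences of Fxyd1 and Atp1b2 was not tested.

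Markers of the other cell types that the tissue could hold were summed in the same way. For scale, edgeR called 3.83% of all 14263 tested genes higher and 4.99% lower. DESeq2 called 599 of them higher and 887 lower, and limma-voom 401 and 624. At an unadjusted edgeR p the shares cannot be smaller than those of edgeR above and are not given here. Neuron markers summed to 176 and 184 CPM in EF and 179 and 179 CPM in noEF, with 0 of 7 tested genes called higher or lower by edgeR, DESeq2 or limma-voom and 1 lower at an unadjusted edgeR p under 0.05. Oligodendrocyte lineage markers summed to 2451 and 2792 CPM in EF and 2567 and 2419 CPM in noEF, with Pdgfra and Gpr17 called lower among 7 tested by edgeR, 2 lower by DESeq2 and 1 lower by limma-voom. Fibroblast and mural markers summed to 11.3 and 7.54 CPM in EF and 5.53 and 5.14 CPM in noEF, of which edgeR called Acta2 higher among 5 tested. DESeq2 also called 1 of them higher, limma-voom called 0 higher and 1 lower, and an unadjusted edgeR p under 0.05 gave 1 higher and 1 lower. Endothelial markers stayed at 0.743 to 2.49 CPM in sum and microglial markers at 0.224 to 1.16 CPM over the 4 libraries, and none of their 3 tested genes passed by any of the tools or at an unadjusted edgeR p under 0.05.

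The genes whose profile lay nearest to that of Fxyd1, by Euclidean distance of centred log2 CPM over 4 libraries among 12999 named genes, were Rnase1, Meig1 and Lbhd2, at distances of 0.36, 0.37 and 0.39. Rnase1, a secreted ribonuclease gene, had 2.80 and 3.95 CPM in EF and 12.4 and 11.1 CPM in noEF. Meig1, a gene needed for sperm formation, had 0.616 and 0.802 CPM in EF and 4.67 and 3.09 CPM in noEF. Lbhd2 had 0.252 and 0.315 CPM in EF and 1.60 and 1.04 CPM in noEF, from 9 and 11 counts in EF and 52 and 35 in noEF. Rnase1 and Meig1 were called lower in EF, and Lbhd2 was not called. All were picked for likeness to Fxyd1, so their calls are no separate evidence.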

How the data were processed

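Polyadenylated RNA of 2 EF and 2 noEF libraries was sequenced after random-hexamer priming, with no strand-keeping step described in the labels' protocols. The values deposited are raw counts for each gene and library, all whole numbers. HISAT2 2.0.4, StringTie 2.2.1, DESeq2 1.44.0 and GRCm38 appear in the submitters' processing notes, while how reads were counted, with which annotation and strand, is not given in the sources used here. In each library fewer genes had a count of 1 (57 to 76) than of 2 (239 to 294). Bounds from a count of 0 cover counting error only.

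After filterByExpr (at least 10 counts, total at least 15) and TMM scaling, edgeR 4.0.16 in R 4.3.3 gave robust quasi-likelihood F tests, with Benjamini-Hochberg adjustment over 14263 genes. The biological coefficient of variation was 0.161. Replicates differed well beyond counting noise (chi-square per degree of freedom 18.7 in EF, 19.8 in noEF). Log2 fold changes are EF minus noEF, and each SE was its absolute value divided by the square root of F.

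Alternatives were RLE or library totals, other filters, DESeq2 1.42.0, limma-voom (limma 3.58.1), the replicate number as a block, a length and GC offset (mgcv 1.9.3), and each library left out. Lengths and positions came from GENCODE M21, which held 22022 of the genes.

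The members and lists were chosen with earlier results of these data known. Named are the 7 members, genes of the further pump list, the 3 smallest p of each other transport list, and the 3 profiles nearest to the member with the largest fold change; Lgi4, Slc20a2, Nkain3, the other partners and the cell markers named were added after their values were seen. The lists cover other pump subunits, pump partners, calcium pumps, sodium-coupled exchangers and uptake carriers, cation-chloride cotransport, and markers of neural stem cells, astrocytes, neurons, oligodendrocyte lineage, fibroblast and mural, endothelial, choroid plexus and ependymal, and microglial cells. Some genes that these rules name are not reported here.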

Additional observations from a re-analysis of the deposited data

How the results depend on the processing

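Of the members, Fxyd1, Atp1b2 and the uncalled Atp1b1 kept their direction under all 13 alternatives. The choice of members on this contrast makes that no evidence of stability. The number of members called lower fell to 1, Fxyd1, with library totals, with the replicate block and with the replicate block plus the length and GC offset. Leaving out single libraries gave 1 to 2, with 1 without EF 1, and 0 members were higher in each case. Over all genes edgeR called 546 higher and 712 lower with the settings reported, and library totals gave 1138 higher and 505 lower genes, so higher genes were 69.3% of calls against 43.4% with TMM, and moved the median log2 fold change of all tested genes to 0.09. No filter gave 915 and 1203, and the replicate block with the offset 271 and 393. Leaving out single libraries gave 217 to 790 higher and 337 to 1065 lower genes, with 217 and 337 without EF 1. The TMM factors that library totals leave out were 1.03 and 1.03 in EF and 0.965 and 0.976 in noEF. Leaving them out moves log2 fold changes up by construction. Why these factors differed between the groups, and the cause of the other shifts, was not tested.

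The replicate numbers come from the sample titles and are not stated to mark a shared culture or day. The library named E3 is EF replicate 2 by its title, so the block sets it with the noEF library numbered 2, a match that the library names do not give, and the deviations of same-numbered libraries from their group means correlated at -0.09 over genes. The replicate block alone gave 410 higher and 568 lower genes. A fit without 1 library assumes that the lone library of its group varies like the other group. With 2 libraries per group, small differences such as those of Atp1b1, Atp1b3 and Fxyd6 could not be resolved, and Fxyd5 and Fxyd7 were limited by their counts.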
